A study of Mus musculus with 27 samples.

Results

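Mbd2KO macrophages were compared with Mbd2KO monocytes, both sorted from the inflamed colon. The aim was to describe how transcript levels differ between cells taken as an earlier and a later stage of monocyte maturation, in mice without Mbd2. The members were the 5 arrays labelled Mbd2KO macrophage from colon (arrays 16 to 20) and the 5 labelled Mbd2KO monocyte from colon (arrays 6 to 10), 10 of the 27 arrays of the series, chosen by these labels and not by any measured value. All 10 came from mice given 2% dextran sodium sulfate (DSS), a detergent-like polymer that injures the colon epithelium and causes colitis, and the knockout is a deletion of Mbd2 in the whole animal, so every cell type of these mice lacks it. The same 2 cell types of DSS treated WT mice (5 arrays each) served as the reference. RNA was read on Illumina MouseWG-6 BeadChips, and each array was made up of 1 to 5 mice by the series record. The study's methods give 1 to 10 mice per replicate instead, from separate experiments, and no label says which arrays shared an experiment. All 20 arrays share the DSS treatment, untreated mice were not analysed here, and the ages of the mice behind single arrays were not given in the sources used here.

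Most colon macrophages are short-lived and are replaced from blood, while some are long-lived. Ly6C high monocytes enter the lamina propria through the chemokine receptor CCR2, lose Ly6C, gain MHC class II and CX3CR1, and end as F4/80 high cells that take up dead cells and bacteria and release IL-10. During colitis many cells stop part way and make inflammatory mediators. MBD2 reads methylated CpG sites and recruits the NuRD complex, which removes acetyl groups from histones and compacts chromatin.

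The sort separated the cells by some of the proteins measured here, so their transcripts are a check of the labels and not a finding. Monocytes were sorted as CD11b+ Ly6C+ F4/80- cells with or without MHC-II, and macrophages as CD11b+ Ly6C- MHC-II+ F4/80+ cells. Both sorts followed CD45 selection and removal of Ly6G+ and Siglec-F+ cells, and both could hold MHC-II+ cells. Ly6c1, on the normalized log2 scale used throughout, read 12.34, 12.43, 12.31, 12.64 and 12.77 in Mbd2KO monocytes and 8.64, 9.04, 9.54, 9.74 and 9.47 in Mbd2KO macrophages. Adgre1, which encodes F4/80, lay between 10.81 and 11.33 in monocytes and between 12.24 and 12.36 in macrophages. Neither gene overlapped between the cell types, and both moved the way the gates were drawn. H2-Ab1, the MHC class II beta chain, sat at 14.14 on 8 of 10 arrays, the highest value that the normalization can give, so its level was not resolved, and another probe gave -0.22 and did not pass. Another probe of Adgre1 gave 0.81 and did not pass either. Itgam (CD11b) read 7.48 on macrophage array 20 and 4.58 to 5.07 on the other macrophage arrays. Mbd2 itself had 1 probe, with a detection p-value of 0.0566 at best over the 20 WT and Mbd2KO arrays, and therefore gave no check of the genotype.

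Mean bead intensity was 235 to 314 in Mbd2KO monocytes and 203 to 324 in Mbd2KO macrophages, with 16132 to 17876 and 16694 to 18608 probes detected. Array 20 had the lowest intensity and stood apart on the first principal component (35.6% of the variance), at -2.3 against 16.1 to 34.6 for the other Mbd2KO macrophage arrays and -46 to -32.2 for the Mbd2KO monocytes. Counts are given without it below. In the deposited table the columns of all monocyte arrays came before those of all macrophage arrays, so column order and cell type cannot be told apart.

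Promoter sequence is shown for the genes with the largest changes and for the C1q genes of complement, because the genes with the largest falls, Chil3 and Chil4, are close paralogs, and the C1q genes lie side by side. The stretches are the 250 bases before the annotated transcript start, from RefSeq on build GRCm38.p6, read 5′ to 3′ on the strand of the gene. Capitals mark matches, on either strand, to TGCTGA (a core of MAF factor sites), GAGGAA (a PU.1 type core) or CACGTG (an E box). Of 6 genes looked up, 5 had an entry, and C1qa did not. Retnla lies on the plus strand at chr16:48842359-48842608, and the others on the minus strand, C1qb at chr4:136886201-136886450, C1qc at chr4:136892915-136893164, Chil4 at chr3:106219480-106219729 and Chil3 at chr3:106167565-106167814.
Retnla: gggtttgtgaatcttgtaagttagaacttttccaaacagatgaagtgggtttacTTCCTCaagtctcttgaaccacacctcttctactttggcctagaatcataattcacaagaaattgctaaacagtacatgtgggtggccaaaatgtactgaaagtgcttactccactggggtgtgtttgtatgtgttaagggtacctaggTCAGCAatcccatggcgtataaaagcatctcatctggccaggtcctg
C1qb: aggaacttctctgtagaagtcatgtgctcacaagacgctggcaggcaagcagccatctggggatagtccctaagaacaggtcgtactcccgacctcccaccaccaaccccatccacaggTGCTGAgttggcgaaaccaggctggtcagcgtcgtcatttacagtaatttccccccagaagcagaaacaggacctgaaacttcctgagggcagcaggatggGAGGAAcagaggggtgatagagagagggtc
C1qc: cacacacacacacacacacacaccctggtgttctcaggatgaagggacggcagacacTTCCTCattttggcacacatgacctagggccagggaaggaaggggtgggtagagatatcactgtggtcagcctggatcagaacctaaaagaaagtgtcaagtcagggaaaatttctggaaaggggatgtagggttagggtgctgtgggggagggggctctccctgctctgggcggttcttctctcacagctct
Chil4: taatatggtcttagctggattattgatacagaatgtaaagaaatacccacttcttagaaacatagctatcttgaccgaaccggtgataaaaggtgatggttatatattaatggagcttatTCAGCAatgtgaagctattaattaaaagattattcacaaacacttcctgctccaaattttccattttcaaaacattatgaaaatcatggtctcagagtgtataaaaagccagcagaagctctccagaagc
Chil3: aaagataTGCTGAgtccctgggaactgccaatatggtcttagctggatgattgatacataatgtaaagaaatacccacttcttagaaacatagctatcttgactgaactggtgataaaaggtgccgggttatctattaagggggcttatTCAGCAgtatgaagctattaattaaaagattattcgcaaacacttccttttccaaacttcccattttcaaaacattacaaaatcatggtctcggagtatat
In these windows the GAGGAA match lay 196 bases before the start of Retnla, 30 before C1qb and 193 before C1qc, and there was none for Chil3 or Chil4. TGCTGA occurred 1 time for Retnla, C1qb and Chil4 and not for C1qc. Chil3 held it at 243 and at 101 bases before the start. CACGTG was in none of the 5 windows. Among all 32851 promoter windows of this length, 16.1% held TGCTGA, 23.3% GAGGAA and 6.02% CACGTG. The windows of Chil3 and Chil4 were identical at 203 of 279 aligned positions (72.8%) and shared a run of 44 bases. The transcripts of these paralogs are alike too, so signal could be shared between their probes, and their values are uncertain as levels of either gene alone.

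The difference between Mbd2KO macrophages and Mbd2KO monocytes was broad. Of 13243 genes tested with limma, 3324 (25.1%) had an adjusted p-value under 0.05, 1836 higher (13.9%) and 1488 lower (11.2%) in macrophages. With a log2 change of at least 1 in size as well, 658 genes were called (4.97%), 351 higher (2.65%) and 307 lower (2.32%), and without array 20 the count was 725. Over all genes, 20.8% had arrays of the cell types that did not overlap, against 613 of the 658 called genes. The median change over all genes was 0.01. Under median scaling in place of quantile normalization that median was 0.12 and the split moved to 498 higher and 233 lower, so the excess of genes higher in macrophages depends on the scaling. The p-values measure the spread between these arrays, and because whole populations were read, more cells with a transcript and more transcript per cell cannot be told apart.

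Genes that mark incoming monocytes were lower in the macrophages. Of 19 tested genes of monocyte recruitment and identity, 15 fell and none rose, against 11.2% and 13.9% of all genes. Of these 19, 13 were called lower, against 2.32% of all genes, and the median change was -1.68 against 0.01. Chil3, a secreted chitinase-like lectin, read 12.38, 12.36, 12.64, 12.62 and 12.3 in Mbd2KO monocytes and 7.08, 6.53, 8.02, 7.21 and 6.65 in Mbd2KO macrophages, a change of -5.36 (SE 0.32, limma adjusted p = 3.68e-11). Every monocyte array lay far above every macrophage array, and a lack of overlap was a condition for picking the largest changes. Chil4, its neighbour, read 12, 11.99, 12.47, 12.35 and 11.56 against 6.21, 5.84, 7.01, 6.26 and 5.98, a change of -5.82 and the largest of any named gene. Hp (haptoglobin) went from between 12.27 and 12.49 to between 8.91 and 9.28, and its arrays hardly varied within either cell type. Ccr2, the receptor that brings monocytes into tissue, read 8.84, 8.82, 8.75, 8.9 and 8.61 against 6.61, 6.69, 6.84, 6.69 and 5.92 (-2.23, SE 0.18). Array 20 was the lowest macrophage array for Ccr2. Vcan (versican, a matrix proteoglycan, -2.92), S100a4 (-2.96) and Cd177 (-2.99) fell too, while 3 other probes of Vcan fell less, between -1.18 and -0.74. The calprotectin subunits S100a8 (-1.64) and S100a9 (-1.68), Trem1 (-1.71) and Clec4e (-1.59) were called as well. Thbs1 (-0.32), F13a1 (-0.53), Fn1 (-0.79) and Itga4 (-0.04) did not pass the test.

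Genes of resident tissue macrophages were higher. Of 28 tested, 25 rose and 1 fell, against 13.9% and 11.2% of all genes. Called higher were 20, against 2.65% of all genes, and the median change was 1.93. Fcrls, an Fc receptor-like scavenger receptor, read 7.19, 6.51, 6.44, 5.28 and 5.81 in Mbd2KO monocytes and 10.16, 10.2, 10.37, 9.61 and 10.06 in Mbd2KO macrophages, a change of 3.83 (SE 0.25, limma adjusted p = 1.55e-10). Cd163, the haemoglobin scavenger receptor, read 7.19, 7.37, 6.8, 6.48 and 6.41 against 9.84, 10.97, 10.6, 10.28 and 10.54 (3.59, SE 0.28). The groups did not overlap for either gene, which the rule for picking the largest changes required. Other probes of Fcrls gave 3.28, called, and 0.94, not passed. Pf4, a platelet chemokine also made by macrophages, read 8.63, 8.15, 8.04, 7.74 and 8.06 against 11.68, 11.85, 11.65, 11.3 and 11.53 (3.48, SE 0.16). Cx3cr1, the fractalkine receptor gained during maturation, went from 7.64 to 8.05 up to 10.02 to 10.53, a change of 2.53 (SE 0.26). Mrc1, the mannose receptor, went from 9.49 to 10.38 up to 11.82 to 12.26 (2.29, SE 0.19). Folr2 (2.95), Cd72 (2.89), Cd81 (2.80), Ms4a7 (2.75), Igf1 (2.25) and Vcam1 (1.99) were called too. Timd4 and Cd4, which mark long-lived gut macrophages, rose too, Timd4 by 1.28 and Cd4, which no monocyte array detected, at least 3.46-fold. Csf1r (0.77) and the transcription factor Maf (0.55) rose by less than the size needed for a call, and another probe of Csf1r gave -0.82 and did not pass. Fcgr1, which encodes the macrophage marker CD64, changed by -0.07 and Trem2 by 0.47, and neither passed the test. The brightest probe of Stab1 fell (-0.84) while its other probe rose (2.39), so Stab1 has no settled direction.

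**Figure D1:**
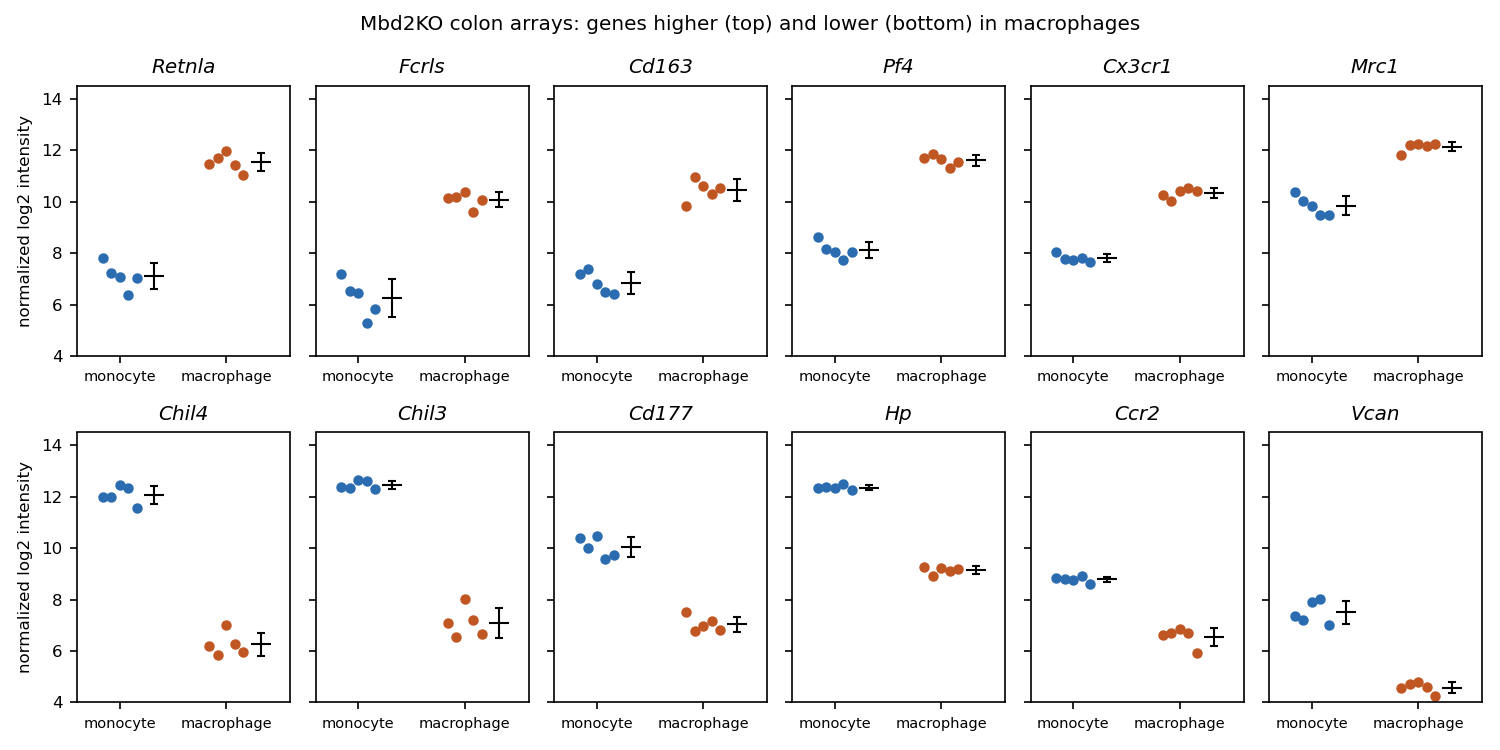
Normalized log2 intensity of 12 genes on the 5 Mbd2KO monocyte arrays (blue) and the 5 Mbd2KO macrophage arrays (orange), each point an array, in order of array number, with the mean and SD beside them. The upper row rose and the lower row fell in macrophages: Retnla lay at 6.36 to 7.81 and 11.05 to 11.99, Chil4 at 11.56 to 12.47 and 5.84 to 7.01. The arrays of the cell types overlapped for none of the 12. Except for Cx3cr1, Mrc1 and Ccr2, this was a condition of the rule for the largest changes and so is no finding.

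The largest rise of a named gene was that of Retnla, which encodes the secreted resistin-like molecule alpha of alternatively activated macrophages. It read 7.81, 7.23, 7.07, 6.36 and 7.04 in Mbd2KO monocytes and 11.47, 11.7, 11.99, 11.43 and 11.05 in Mbd2KO macrophages, 21.5-fold higher (log2 4.43, SE 0.31, limma adjusted p = 3.88e-10). H2-M2, a nonclassical MHC class I gene, read 6.28, 7.43, 6.31, 6.7 and 7.06 against 10.72, 11.24, 10.67, 11.66 and 10.81 (4.26, SE 0.41). Both genes separated all arrays, which the rule for picking the genes with the largest changes required. Lag3, an inhibitory receptor best known from T cells, rose by 3.76 from 5.02 to 5.56 up to 8.45 to 9.74. Of 9 T cell markers on the array, 7 were detected on all 10 arrays. None of the 7 tested passed the test, and which cells carried Lag3 was not tested. Gpnmb, a lysosomal glycoprotein of lipid-laden macrophages, rose by 3.53, and its other probes gave 1.91, 1.09 and 0.60, the last of which did not pass. Apol7c (3.26), the adhesion molecule Cadm1 (3.25), the ubiquitin ligase adaptor Asb2 (3.23) and the lectin Fcna (3.16) completed the largest rises with complement C6. Among the largest falls, Dmkn (dermokine) read 10.12, 9.42, 10.29, 9.99 and 9.43 against 5.61, 5.36, 5.4, 4.88 and 5.02 (-4.59, SE 0.22). Prtn3, a granule protease of immature myeloid cells (-3.10), Igfbp6 (-2.86), Mcemp1 (-2.80) and Pi16 (-2.74) were further large falls.

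The complement genes that passed the test were all higher in macrophages. Of 14 tested, 5 rose and none fell, against 13.9% and 11.2% of all genes. Called were 2, against 4.97% of all genes, and the median change was 0.43. C1qc read 11.71, 11.96, 11.4, 11.41 and 11.86 in Mbd2KO monocytes and 13.35, 13.46, 13.13, 13.49 and 13.36 in macrophages (1.69, SE 0.19). C1qb, its neighbour subunit of the C1q recognition molecule, rose from between 12.34 and 12.94 to between 13.59 and 13.69 (0.92, SE 0.15). Its macrophage values lay close to the highest the scale can give, which limits how large a change could be read. C1qa read 12.37, 12.51, 10.27, 11.03 and 12.43 in macrophages, and arrays 18 and 19 overlapped the monocytes at 10.32 to 11.16. Its change of 0.83 did not pass the test (limma adjusted p = 0.0991), and without array 18 it was 1.2 and called. C6, a component of the membrane attack complex, rose by 3.15, from 4.52 to 6 up to 7.92 to 9.05. Properdin (Cfp, 0.94) and the decay accelerator Cd55 (0.88) rose, and C3 (-0.20), Cfb (-0.30) and C4b (0.15) did not pass.

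Receptors for debris and dead cells were divided. Of 21 tested, 9 rose and 4 fell, 8 and 2 of them called, with a median of 0.30. The shares of all genes were 13.9% and 11.2%, with 2.65% and 2.32% called. Besides Cd163 and Mrc1, the scavenger receptor Marco rose by 2.40, from 4.38 to 4.8, where only 2 of 5 arrays detected it, up to 6.5 to 7.81. The receptors Mertk (1.90) and Axl (1.67) for apoptotic cells and their bridging ligand Gas6 (1.53) were called, as was the integrin subunit Itgb5 (1.40). Cd300lf (-1.12) and Scarb1 (-1.14), a lipid scavenger receptor, were called lower. Their calls were lost without array 17 (Cd300lf, -0.97) and without array 18 or 19 (Scarb1, -0.86 and -0.97), and both were lost under median scaling (-0.95 and -1.02). Mfge8 (0.07), Clec7a (0.02) and Lrp1 (-0.14) did not pass.

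Of 27 tested lysosomal genes, 18 rose, 1 fell and 8 did not pass, with 4 called and a median of 0.55. Shares of all genes, for this list and the others here, were 13.9% higher, 11.2% lower and 4.97% called. Lipa, the lysosomal acid lipase, read 8.39, 9.19, 8.5, 9.2 and 9.09 in monocytes and 10.8, 10.77, 10.33, 10.1 and 9.35 in macrophages (1.40, SE 0.28). Array 20 was the lowest macrophage array. Lgmn, an endolysosomal protease, rose by 1.19 and Tpp1 by 1.16. Ctsa showed the largest change of the list at 2.39, but its 4 other probes read between -0.03 and 0.33 and did not pass. Ctsb (0.00, and -0.46 on another probe), Psap (0.04) and Lamp1 (0.21) did not pass. Of 19 lipid genes, 8 rose and 3 fell, 6 and 2 called. The fatty acid binding protein Fabp5 (1.63), cholesterol 25-hydroxylase (Ch25h, 1.46), lipoprotein lipase (Lpl, 1.33), the oxysterol receptor Nr1h3 (1.23) and Apoe (1.19) were higher. Apoc1 read 10.01, 9.69, 10.25, 10.1 and 9.49 against 8.39, 8.12, 8.18, 7.6 and 7.65, a fall opposite to that of Apoe, with which it lies in 1 gene cluster (-1.92, SE 0.17). Apoc2, of the same cluster, fell by 1.12, and its other probe gave -0.77, below the size for a call. Little change was seen in MHC class II genes: of 14 tested, 2 rose (Lgmn and H2-Ob, 0.94), none fell, and the median was 0.15. H2-Ab1 and H2-Eb1 (means 13.77 in monocytes and 13.93 in macrophages) lay at or near the top of the scale, where a change is hard to resolve. H2-Aa, at means of 12.71 and 12.79, changed by 0.08 and did not pass. The monocyte gate also took in MHC-II+ cells. The invariant chain Cd74 changed by 0.11 on its brightest probe, near the top of the scale, and the class II activator Ciita by -0.41, and neither passed. Other probes of Cd74 gave 0.75, which passed (limma adjusted p = 0.0366) but was below the size for a call, and 0.04, which did not pass.

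Inflammatory cytokines and enzymes did not move as a block. Of 21 tested, 10 fell, 1 rose and 10 did not pass, with 7 called lower and a median of -0.76. Among all genes 11.2% fell, 13.9% rose and 2.32% were called lower. Il12a, the p35 chain of IL-12 and IL-35, read 8.09, 6.72, 7.71, 7.77 and 7.81 in Mbd2KO monocytes and 5.08, 4.81, 4.7, 5.92 and 5.02 in macrophages (-2.52, SE 0.31, limma adjusted p = 1.47e-06). The groups did not overlap, with monocyte array 7 the lowest of its group. Slpi, a protease inhibitor of phagocytes, read 12.97, 12.7, 13.18, 12.83 and 12.28 against 10.53, 10.56, 10.65, 10.76 and 10.06 (-2.28, SE 0.23). Ptges, the inducible prostaglandin E synthase, read 7.83, 7.59, 8.57, 8.36 and 7.98 against 5.69, 6.32, 6.08, 6.35 and 5.59 (-2.06, SE 0.32). Nos2, the inducible nitric oxide synthase, read 5.17, 5.05, 6, 6.06 and 6.64 in monocytes and was detected on only 2 of 5 macrophage arrays, at 4.22 to 4.67 (-1.33). Arg2 (-1.43), Lcn2 (-1.41) and Il15 (-1.03) were called lower, and Il18 (-0.89) fell by less.

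The best known cytokines of colitis did not separate the cell types. Il1b read 13.47, 13.69, 13.59, 13.37 and 13.49 in Mbd2KO monocytes and 13.57, 13.61, 13.71, 13.63 and 13.75 in macrophages, a change of 0.13 (SE 0.086) that did not pass, at an intensity close to the highest the scale can give. Tnf read 11.08, 9.89, 10.57, 10.98 and 10.36 against 10.74, 10.57, 10.43, 11.87 and 10.41 (0.23, SE 0.29). Il6 changed by -0.26 (SE 0.26), Il1a by 0.36 (SE 0.39) and Ptgs2 by -0.19 (SE 0.28), all with overlapping arrays. Array 19 was the highest macrophage array for Tnf and Il1a. Ifnb1 was the only member that rose (1.20, limma adjusted p = 0.0119). It read 6.73, 7.46, 7.73, 8.96 and 6.55 in macrophages and overlapped the monocytes at 5.69 to 7.21. Its call was lost in 4 of 22 alternative settings, among them the fit without array 19 (0.83).

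Regulatory genes were divided too, with 6 of 21 higher and 6 lower, 5 and 2 called, and a median of -0.21. The shares of all genes were 13.9% and 11.2%, with 2.65% and 2.32% called. Il10, the main suppressive cytokine of gut macrophages, read 10.41, 9.95, 9.86, 10.39 and 9.73 in monocytes and 11.3, 11.66, 11.36, 12.07 and 11.51 in macrophages (1.51, SE 0.15). Both chains of the TGF-beta receptor were higher. Tgfbr1 read 10.16 to 10.27 in monocytes and 11.5 to 12.16 in macrophages (1.59, SE 0.12), and Tgfbr2 rose by 1.49. The ligand gene Tgfb1 fell by 0.81. Socs1, an inhibitor of cytokine signalling, fell by 1.16, from 5.31 to 6.43 down to 4.5 to 5.28. Arg1, an arginine-consuming enzyme of alternatively activated macrophages, fell (-0.66, SE 0.22), and its other probe gave -0.62 and did not pass. Chil3, also of this list, was called lower (-5.36), while Retnla and Mrc1 of the list rose. Ido1 (0.10), Il1rn (-0.54) and Il10ra (-0.32) did not pass. Of 11 tested genes that the study names, a list chosen on these samples and so no independent evidence, Retnla, Fcrls and Vcam1 rose and Apoc1 and Tlr2 fell. Lyz1 (lysozyme) of that list gave 1.15, called, and 1.53, not passed, on its dimmer probes. Its brightest probe, named Lyz on the array, gave 0.08. That probe read 13.46 to 13.61 in monocytes and 13.54 to 13.79 in macrophages, near the top of the scale, where a change is hard to resolve.

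**Figure D2:**
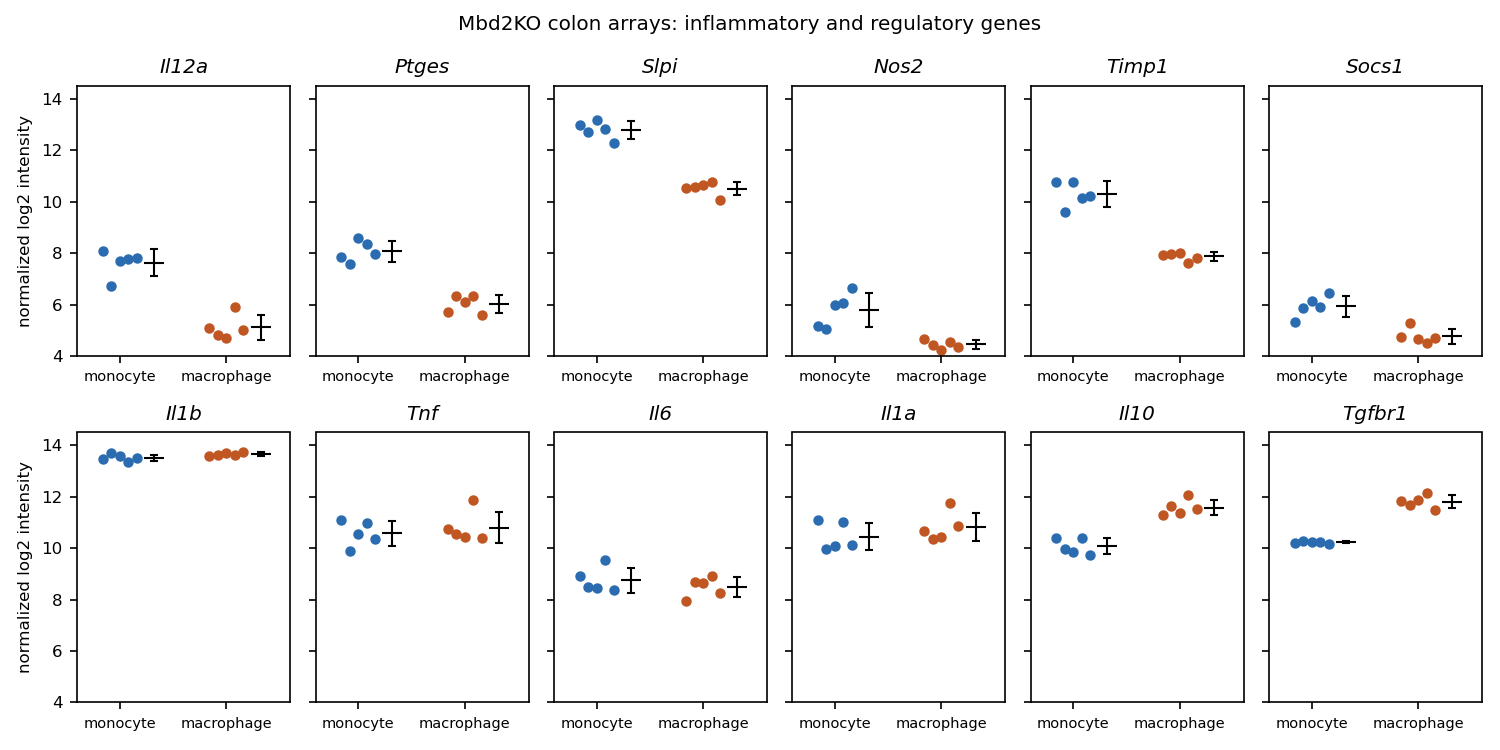
Normalized log2 intensity of 12 inflammatory and regulatory genes on the 5 Mbd2KO monocyte arrays (blue) and 5 Mbd2KO macrophage arrays (orange), each point an array, with mean and SD. All 6 genes of the upper row were called lower in macrophages, but Nos2 and Socs1 each lost the call in 2 of 22 alternative settings. Il1b, Tnf, Il6 and Il1a overlapped between the cell types, and Il10 and Tgfbr1 were higher on every macrophage array than on any monocyte array.

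Chemokine genes leaned upward. Of 18 tested, 9 rose, none fell and 6 were called, with a median of 0.44. Among all genes 13.9% rose, 11.2% fell and 4.97% were called. Ccl7, a ligand of CCR2, read 10.15, 9.97, 9.35, 9.57 and 9.64 in monocytes and 12.03, 12.37, 12.07, 12.23 and 12.47 in macrophages (2.50, SE 0.26), while its receptor gene was lower. Ccl2, the other well known CCR2 ligand, rose by 1.41 from 7.64 to 8.47 up to 9.16 to 9.78. Cxcl13, which attracts B cells, varied widely within both cell types, from 6.01 to 8.96 and from 9.2 to 11.33, and rose by 2.46 (SE 0.57). Ccl3 (1.29) and Cxcl1 (1.03) were called as well. Cxcl10 read 11.61, 10.74, 11.94, 11.95 and 11.8 against 10.12, 10.02, 10.16, 11.51 and 11.19 (-1.01) and did not pass (limma adjusted p = 0.185). Among 11 receptors, Cx3cr1 and Cxcr3 (1.14) were called higher and Ccr2 lower. The formyl peptide receptors went opposite ways, Fpr1 by 0.65 and Fpr2 by -0.80.

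Of 24 Toll-like receptor and adaptor genes, 10 fell and 3 rose, with a median of -0.15. Shares of all genes, for this list and the next, were 11.2% lower, 13.9% higher and 4.97% called. The muramyl dipeptide sensor Nod2 fell by 1.42, from 7.43 to 7.9 down to 6.06 to 6.44, and was the only one called. The adaptor Myd88 (-0.86), Nod1 (-0.76), Ticam1 (-0.73) and Tlr2 (-0.35, SE 0.10) fell by less, and Tlr1 (0.84) rose. Tlr4 gave 0.02 on its brightest probe and -1.01 on another, which was called. Of 25 interferon stimulated genes, 8 fell, none rose and 4 were called, with a median of -0.51. Gbp2, an interferon induced GTPase, read 13.3, 13.38, 13.33, 13.37 and 13.7 in monocytes and 11.72, 11.88, 11.85, 12.26 and 12.26 in macrophages (-1.42, SE 0.29). The 2-5A synthetases Oas2 (-1.29) and Oas3 (-1.43) and the factor Irf7 (-1.21) were called. Mx1 (-0.15) and Ifih1 (0.06) did not pass.

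Most transcription factor genes of the myeloid lineage differed little. Of 32 tested, 12 rose and 4 fell, with 2 called and a median of 0.25. Among all genes 13.9% rose, 11.2% fell and 4.97% were called, so the number called was near that share. Spic, a factor needed by red pulp macrophages that recycle iron, read 8.64, 8.35, 8.08, 8.28 and 8.29 in monocytes and 9.65, 9.98, 10.51, 10.44 and 10.39 in macrophages (1.87, SE 0.20). Klf2 (0.94), Irf4 (0.83), Klf4 (0.70) and Pparg (0.64) rose. The other probes of Klf4 gave -0.14 and 0.07 and did not pass. Spi1, which encodes PU.1, fell by 0.74 (SE 0.22), and Cebpb (-0.07) and Irf8 (0.37) did not pass. Genes of methyl-CpG reading, NuRD and DNA methylation were near the median of all genes (0.07 over 18 tested, 4 higher and 3 lower). Their number called, 1 of 18, was near the share of all genes too. Uhrf1, which guides DNA methylation at replication, was the only one called, from 6.89 to 7.94 up to 8.33 to 8.73 (1.20, SE 0.18), and its partner Dnmt1 rose by 0.50. Mbd3 (-0.67, SE 0.37) and Chd4 (0.03, and -0.21 on another probe) did not pass, and Gatad2b fell by 0.72.

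Cell cycle genes were higher in macrophages. Of 29 tested, 18 rose, none fell and 9 were called, with a median of 0.75. Shares of all genes, for this list and the next, were 13.9% higher, 11.2% lower and 4.97% called. Top2a, the replication topoisomerase, read 5.63, 5.2, 5.28, 5.82 and 5.35 in monocytes and 6.72, 6.62, 6.92, 7.56 and 7.14 in macrophages (1.54, SE 0.21). E2f1 rose by 1.15, from 6.7 to 7.03 up to 7.92 to 8.11. Stmn1 (1.31), Mcm6 (1.14), Ccnd1 (1.11) and Cdk1 (1.09) were called, and the proliferation marker Mki67 rose by 0.82. These genes were dim: without background correction 1 of the 29 was called, and under median scaling 13. Glycolysis genes leaned the other way, with 7 of 17 lower, none higher and a median of -0.46. The lactate exporter Slc16a3 fell by 1.63 on its brightest probe and read 0.08 on another, Eno1 fell by 0.84, and Gapdh (0.02) and Ldha (-0.19) did not pass.

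Matrix metalloproteinases and their inhibitors were strongly and unevenly different, with 5 of 14 called higher and 3 lower, against 2.65% and 2.32% of all genes. Mmp13, a collagenase, read 9.49, 9.34, 8.75, 9.17 and 8.75 in monocytes and 12.25, 12.14, 12.23, 12.68 and 11.72 in macrophages (3.10, SE 0.27), and its other probes gave 2.23 and 0.99. Macrophage elastase (Mmp12) rose by 2.19, gelatinases Mmp9 and Mmp2 by 2.15 and 2.02, and the inhibitor Timp2 by 1.64. The inhibitor Timp1 read 10.78, 9.59, 10.75, 10.16 and 10.22 against 7.94, 7.98, 8.02, 7.6 and 7.82 and fell by 2.43 (SE 0.31). Neutrophil collagenase (Mmp8) fell by 1.21 and was detected on 1 of 5 macrophage arrays, and Adam8 fell by 1.47. Of 15 co-stimulatory and checkpoint genes and 21 oxidase and antioxidant genes none was called. Cd40 fell by 0.75 on its brightest probe, and its other probes ranged from -1.28 to 0.01. Of 9 Fc receptor genes the neonatal receptor Fcgrt was called, from 10.16 to 10.84 up to 11.94 to 12.25 (1.61, SE 0.14).

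**Figure D3:**
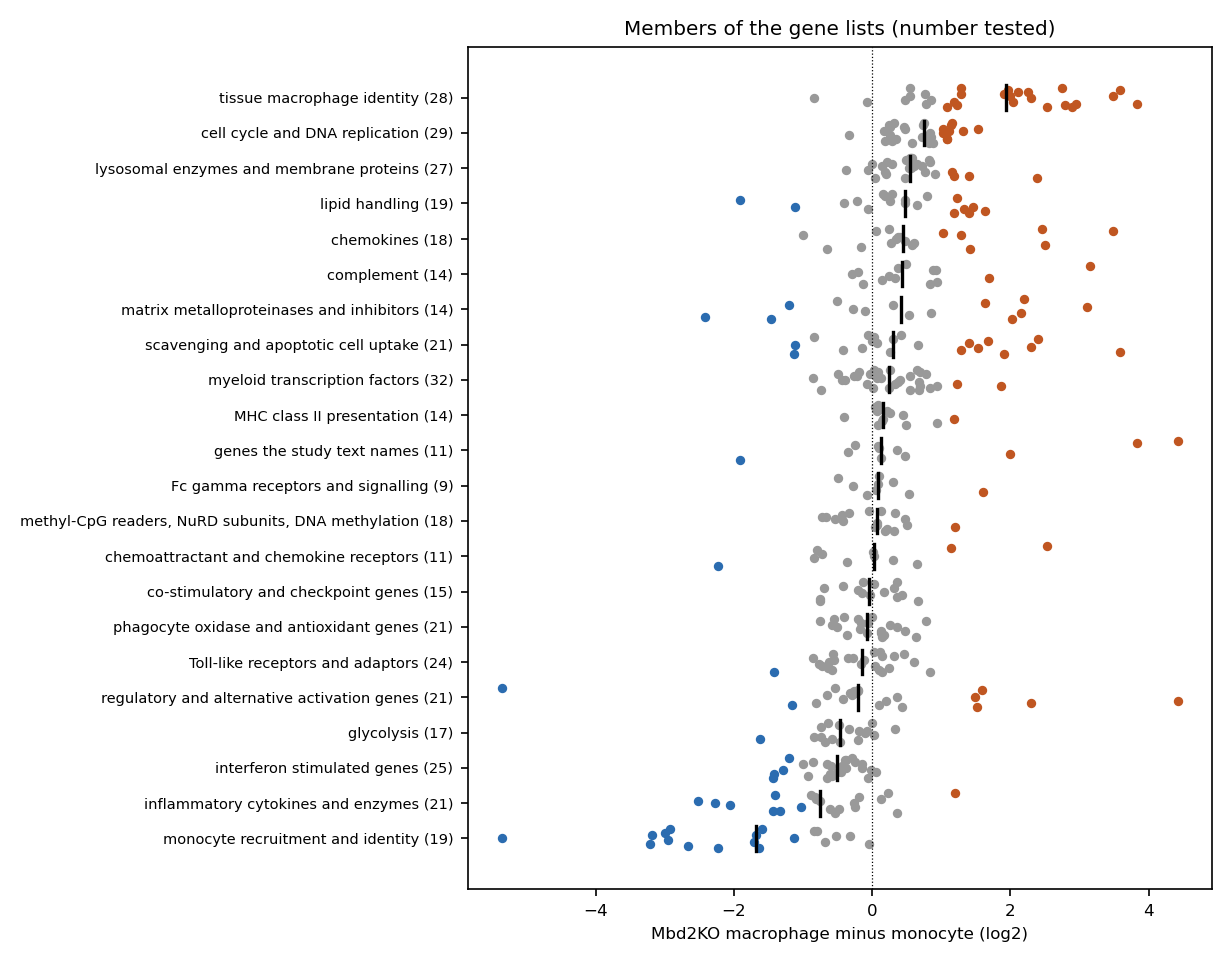
Log2 change from Mbd2KO monocytes to Mbd2KO macrophages of each tested gene (point) of 22 gene lists, with the number tested in brackets and the list's median as a black bar. Orange points were called higher, blue points lower and grey points were not called; list medians ran from -1.68 for monocyte recruitment and identity to 1.93 for tissue macrophage identity.

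Markers of other cell types were read on the same arrays. The summed level of 12 epithelial markers was 9075 to 16221 in monocytes and 10072 to 19345 in macrophages, with 10 of 12 detected on all 10 arrays and Epcam and Fabp2 on none, and no marker passed the test. Stromal markers (1597 to 4743 and 1913 to 3897) were all detected and none passed. Neutrophil markers summed to 1617 to 1965 and 1387 to 2312, and 4 of the 7 tested were lower in macrophages, Mmp8 called, while Mmp9 was called higher (2.15, from 6.34 to 7.45 up to 8.54 to 9.22). Of 8 eosinophil markers, 6 were detected on no array, Siglecf and Epx among them, and the summed level was 1256 to 1767 in monocytes and 1832 to 3632 in macrophages. Ear2 carried that sum and rose (0.95, from 10 to 10.56 up to 10.69 to 11.72), while Prg2, the other one detected, changed by -0.32 and did not pass. Of 7 tested B and plasma cell markers, Cd79b rose (1.36) and Sdc1 fell (-1.02). Of 10 cDC markers, Cd209a rose (1.35) and Dpp4 fell (-0.44), while Xcr1 (0.14), Flt3 (-0.25) and Zbtb46 (0.17) did not pass. The summed levels of T cell (991 to 1149 and 1018 to 1348), mast cell (323 to 426 and 372 to 537), NK cell (301 to 376 and 281 to 619), endothelial (635 to 723 and 629 to 836) and red blood cell markers (296 to 1559 and 204 to 1173) overlapped between monocytes and macrophages. The part of these cells in the results was not tested.

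WT macrophages differed from WT monocytes at 562 genes (4.24%), 317 higher (2.39%) and 245 lower (1.85%), and under median scaling at 606, 277 higher and 329 lower. The change per gene in the Mbd2KO cells and that in the WT cells, which share no arrays, correlated over the 13243 genes at Pearson r 0.774 and Spearman rho 0.696, given as a description because genes are not independent and the arrays were normalized together. Both comparisons called 398 genes, all in the same direction, which is 60.5% of the Mbd2KO calls and 70.8% of the WT calls. Of the 260 called in Mbd2KO cells alone, 256 had the same sign in WT cells. Retnla changed by 4.43 and 4.10, and Chil3 by -5.36 and -5.55, and the difference of these changes did not pass for either of them. Pf4 changed by 3.48 and 2.53, Igfbp6 by -2.86 and -1.47, Spic by 1.87 and 0.81, and Marco by 2.40 and 1.18, and the difference between genotypes did not pass for these either (limma adjusted p between 0.301 and 0.418). Arg1 fell by 0.66 in Mbd2KO and by 1.48 in WT cells, and that difference did not pass.

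**Figure D4:**
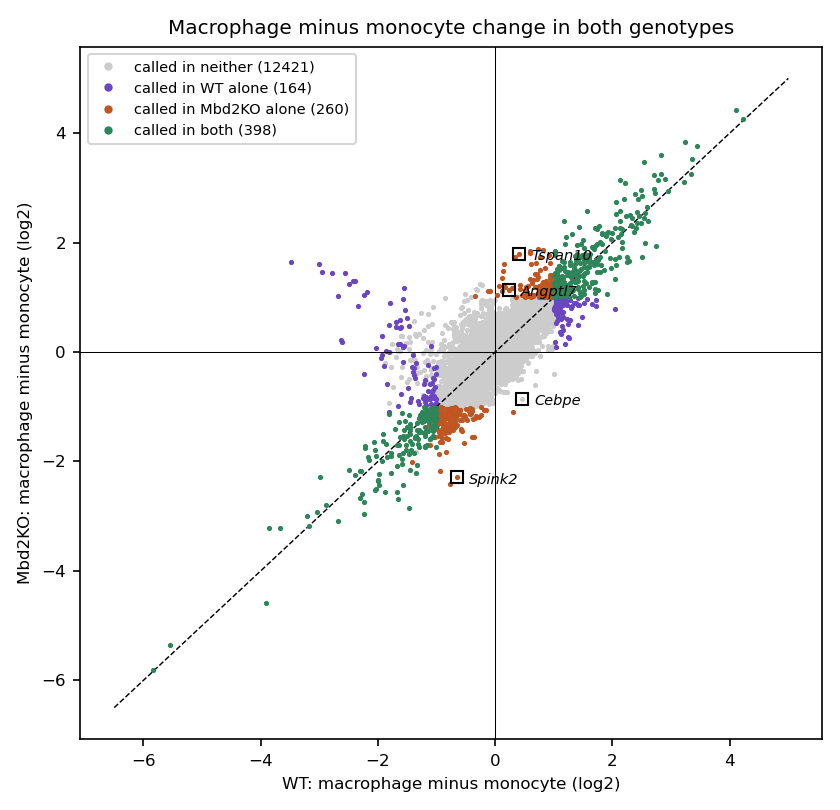
Log2 change from monocytes to macrophages of each of 13243 genes in WT cells (horizontal) and Mbd2KO cells (vertical), coloured by where it was called, with equal changes on the dashed line. Most called genes lay near the line, the 4 genes with a difference between genotypes at adjusted p under 0.05 are boxed, and 35 genes called in WT cells lay on the opposite side of 0 in Mbd2KO cells, none of them called there.

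A direct test of the difference, Mbd2KO change minus WT change, was read on the brightest probe of each gene. It found 4 genes at a limma adjusted p under 0.05 (0.0302% of 13243), 3 of them with a difference of at least 1 in size (0.0227%). At an unadjusted p under 0.05 there were 936 (7.07%), where a share of about 0.05 would come without any difference. Counting any tested probe gave 5 genes. Ptges passed on its dimmer probe (-1.94 in Mbd2KO and -0.52 in WT cells, difference -1.42, limma adjusted p = 0.0357). Its brightest probe did not pass (-0.72, limma adjusted p = 0.79). Spink2, a serine protease inhibitor, read 6.79, 6.55, 7.31, 7.29 and 6.82 in Mbd2KO monocytes and 4.47, 4.52, 4.66, 4.75 and 4.9 in Mbd2KO macrophages, but 5.27, 5.73, 5.44, 6.33 and 5.91 in WT monocytes and 5.36, 4.62, 5.03, 5.25 and 5.13 in WT macrophages. It fell by 2.29 and by 0.66, a difference of -1.63 (SE 0.25, adjusted p = 0.0206), and all Mbd2KO monocyte arrays lay above all WT monocyte arrays. Cebpe, a transcription factor of granule formation in neutrophil precursors, fell in Mbd2KO cells from between 5.5 and 5.84 to between 4.46 and 5.25 (-0.86) and rose in WT cells from between 4.89 and 5.25 to between 5.05 and 5.93 (0.46), a difference of -1.32 (SE 0.21, adjusted p = 0.0206). The difference did not pass on its other probes, at -0.98 (adjusted p = 0.301) and -0.40 (adjusted p = 0.658). Tspan10, a tetraspanin, was detected on no monocyte array of either genotype and on all 5 Mbd2KO macrophage arrays, at 6.01, 6.09, 6.13, 6.96 and 5.73, at least 2.92-fold higher than in Mbd2KO monocytes. In WT macrophages it lay between 4.41 and 4.92, with 3 of 5 arrays detecting it, and the fitted difference of 1.39 (SE 0.23, adjusted p = 0.0206) gives no exact size, because the monocyte values of both genotypes lay at background. Angptl7, a secreted angiopoietin-like protein, is named although its difference of 0.90 (SE 0.15) was below 1. It was detected on no monocyte array and read 5.39, 5.52, 5.72, 5.34 and 5.3 in Mbd2KO macrophages, at least 1.76-fold higher, against 4.28 to 4.84 in WT macrophages, 2 of 5 of which detected it, so its difference gives no exact size either. The fold bounds compare the mean of the macrophage arrays with the lowest signal among detected probes on each monocyte array. These 4 genes were dim, and none of them passed with array numbers 10 apart as a replicate block (adjusted p 0.0672 to 0.108, 1 gene passing in all), under median scaling, under cyclic loess or without background correction (0 genes passing in each). The number passing ranged from 0 to 6 when single arrays were left out. It was 0 without WT monocyte array 2 or 3, Mbd2KO monocyte array 8 or 10 or WT macrophage array 14, and 2 without Mbd2KO monocyte array 9 or WT macrophage array 15.

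**Figure D5:**
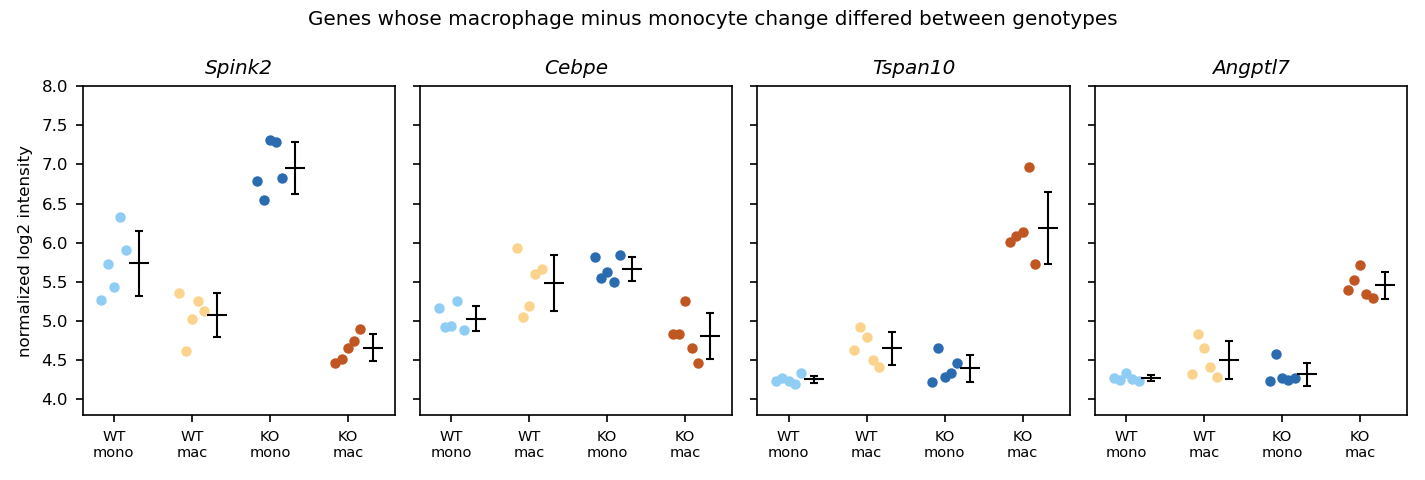
Normalized log2 intensity of the 4 genes whose change from monocytes (mono) to macrophages (mac) differed between genotypes, on 5 arrays of each group, each point an array, with mean and SD. Spink2 was highest in Mbd2KO monocytes (6.55 to 7.31), Cebpe moved in opposite directions in the 2 genotypes, and Tspan10 and Angptl7 were highest in Mbd2KO macrophages (5.73 to 6.96 and 5.3 to 5.72).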

How the data were processed

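Bead intensity was measured on Illumina MouseWG-6 arrays of colon monocytes and macrophages, 5 arrays per group. The authors deposited raw bead intensity from GenomeStudio's gene expression module (version 1.1.1) without normalization or background subtraction, and a detection p-value per probe. Per the labels, lumi and limma were used by the authors; versions and a genome build are not given in the sources used here. Here the deposited intensity was background corrected with normexp on 936 negative control probes (offset 16), log2 transformed and quantile normalized over 25 colon arrays. A 6-group model was fitted with limma 3.58.1 (R 4.3.3) to 18792 probes detected (deposited detection p-value under 0.05) on at least 5 of 20 monocyte and macrophage arrays, with Benjamini-Hochberg adjustment within each comparison. A gene was read by its brightest tested probe and called at an adjusted p under 0.05 and a log2 change of at least 1 in size. The number of arrays limits the precision. Other probes are given where they differ in direction or call. Symbols were updated through RefSeq accessions. No columns of the authors' own comparisons were used, and 3 signal columns that match no sample were left out.

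The genes named were up to 12 called genes in each direction with the largest change and arrays that do not overlap, up to 3 called in each direction of each list with its best known other members, the genes the study names, and those whose change differed between genotypes. Further list members were named after their values were seen. The members and lists were chosen with earlier results of these data known. The fit was tested on simulated data. Alternatives changed the background correction, scaling, filter, thresholds, arrays in the fit, array weights and blocks, and left out each array in turn. Some genes of the lists are counted but not reported here by name. Deviations from the group means of monocyte and macrophage arrays with numbers 10 apart correlated at 0.203 to 0.416 in Mbd2KO and 0.00348 to 0.504 in WT cells, and no label says that the numbers pair the arrays.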

Additional observations from a re-analysis of the deposited data

Results flagged for a closer look

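Among 242 groups of 5 arrays screened (named genes, each group separately), 16 held an array whose gap to its nearest neighbour took up most of the group's range, where chance gives about 1 in 20. In Mbd2KO macrophages, array 20 was the one apart for 6 genes. The gap was a share of the range of 0.744 for Ccr2 (5.92, others 6.61 to 6.84), 0.761 for Cd74 (13.77, others 13.87 to 13.9), 0.739 for Ctsb (13.5, others 13.18 to 13.26), 0.723 for Dnmt1 (7.22, others 7.7 to 7.89), 0.757 for Gapdh (11.35, others 11.65 to 11.74) and 0.833 for Itgam (7.48, others 4.58 to 5.07). Array 16 was apart for Mrc1 (0.81, at 11.82), array 17 for Socs1 (0.714, at 5.28), and array 19 for Nr1h3 (0.867, at 10.87) and Tnf (0.771, at 11.87).

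In Mbd2KO monocytes, array 7 was apart for Angptl7 (0.87, at 4.58, where the gene was not detected), Cxcl10 (0.721, at 10.74) and Il12a (0.725, at 6.72). Array 6 was apart for Gpnmb (0.793, at 9.34), array 8 for Maf (0.715, at 4.42) and array 10 for Gbp2 (0.796, at 13.7).

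A test of the difference between the genotypes in the change from monocytes to macrophages passed for 4 genes on their brightest probes. The change in Mbd2KO cells minus that in WT cells was -1.63 for Spink2, -1.32 for Cebpe, 1.39 for Tspan10 and 0.90 for Angptl7. The causes of these patterns were not tested.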

How the results depend on the processing

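The count of 658 genes between the Mbd2KO cell types was 308 without background correction, 415 with an offset of 50 and 3324 without a minimum change, and 616 to 725 when single arrays were left out. The WT count of 562 was 273, 360 and 2946 under the same settings, and 464 to 637 with single arrays left out. The 4 genes whose change differed between genotypes became 0 without background correction, under median scaling, cyclic loess or an adjusted p under 0.01, in the 20 arrays alone and with column position as a fixed block. They became 2 when the filter asked for detection on more arrays and 7 with array weights. With single arrays left out the number was 0 to 6. In the 11 settings with 0 genes by limma, 701 to 1052 genes had an unadjusted p under 0.05, against 936 of 13243 (7.07%) in the main fit. Without any difference a share of about 0.05 of the genes would have such a p-value, so these counts single out no gene. With array numbers 10 apart as a replicate block the counts were 664, 598 and 1. Of 1628 values of 74 called named genes over all settings, 1590 kept call and direction, 38 lost the call and none turned. The causes were not tested. Probes near background, such as those of the 4 difference genes, limit what these arrays resolve.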

Other observations

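Genes of lipid mediator synthesis outside the lists differed between Mbd2KO macrophages and Mbd2KO monocytes, and were picked after their values were seen. Ptgs1, the constitutive cyclooxygenase, rose by 3.09 (2.22 in WT cells), Hpgds, the haematopoietic prostaglandin D synthase, by 2.98 (2.72 in WT cells), and Alox5, the 5-lipoxygenase, by 1.66 (1.57 in WT cells). Ltb4r1, a receptor for leukotriene B4, fell by 2.69 (and by 1.66 in WT cells), and for none of these did the difference between genotypes pass. Lyve1, a hyaluronan receptor of some tissue macrophages, rose by 2.90 and the lectin Cd209f by 3.15.

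Immunoglobulin genes, named as such on the array, were also picked after their values were seen. Of 90 tested, none was called either way between the Mbd2KO cell types (median 0.00), against 4.97% of all genes. In WT macrophages 16 were called lower (median -0.91), against 1.85% of all genes. The difference between genotypes passed for none of them with limma, with 17 at an unadjusted p under 0.05, against 7.07% of all genes. Their summed level was 29600, 29600, 33500, 41000 and 41400 in Mbd2KO monocytes and 30600, 32600, 37900, 39200 and 40500 in Mbd2KO macrophages, and 37400 to 75100 in WT monocytes and 20400 to 37700 in WT macrophages. Of 35 genes called in WT cells with the opposite sign in Mbd2KO cells, 11 were immunoglobulin genes by their array names. A further 19 had only placeholder names without a definition, so what they are is not known here. None of the 35 was called in Mbd2KO cells.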
